A study of Mus musculus with 6 samples.

Results

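Gene expression in LPS-stimulated macrophages of 2 knockout genotypes was set together against wild type, to find the genes that moved the same way in both. Bone marrow-derived macrophages (BMDM), which are grown from mouse marrow with the growth factor M-CSF, were compared between wild type (WT), Ch25hKO, which lacks cholesterol 25-hydroxylase, and LXRdKO, which lacks both liver X receptors, LXRα and LXRβ. Per the labels, all cells had the strain C57BL/6 and 7 days of culture, and all received LPS, a component of the bacterial wall, at 100 ng/ml for 8 h, so no value here gives the response to LPS itself. Each genotype had 2 libraries, which made 4 knockout libraries against 2 WT libraries. The mean effect of a gene was the mean of its Ch25hKO and LXRdKO log2 fold changes against WT, and 4670 of 12923 genes tested passed edgeR's quasi-likelihood test on it at an adjusted p under 0.05. A gene was said to have moved alike when it passed this test, both knockouts moved it in the same direction, and the smaller of its log2 changes was at least 0.5 times the larger. By this rule 2198 genes moved alike, which is 47.1% of those called.

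Cholesterol 25-hydroxylase is an enzyme of the endoplasmic reticulum (ER) that is induced in activated macrophages and makes the oxysterol 25-hydroxycholesterol. This oxysterol holds back SREBP2, the transcription factor that turns on cholesterol synthesis, and oxysterols as a class are ligands of the liver X receptors, which turn on genes of cholesterol export and dampen inflammatory genes. Loss of the enzyme and loss of the receptors therefore touch neighbouring steps of sterol handling, and genes that move alike in both are those at which these 2 genotypes differ from WT in the same way. Both comparisons use the same WT libraries. A trait of the WT culture or of the WT mouse stock and an effect that both knockouts share cannot be told apart in this design, and no correlation between the knockouts' effects is given for that reason.

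Total counts were 41650513 to 45872964 per library, and no label tells if the libraries of a genotype were separate cultures or animals. All p-values therefore reflect the spread between libraries alone, which may be technical. Libraries of 1 genotype differed by more than sampling noise (chi-square per degree of freedom 12.2 for WT, 5.08 for Ch25hKO, 4.22 for LXRdKO), with the WT pair farthest apart. CPM values are counts divided by the scaled library size, and changes are log2 values ± standard error with n = 2 libraries per genotype. In bulk RNA, fewer cells of a kind and less RNA per cell cannot be told apart. The targeted genes matched their labels. Ch25h (chromosome 19, 34473778 to 34475164, GRCm38) was at 70.2 and 70.8 CPM (WT), 0.969 and 1.31 CPM (Ch25hKO) and 57.2 and 62.5 CPM (LXRdKO). Nr1h3, which encodes LXRα, was at 16.0 and 17.4 CPM (WT), 18.6 and 19.7 CPM (Ch25hKO) and 0.957 and 0.927 CPM (LXRdKO), and Nr1h2, which encodes LXRβ, was at 29.1 and 32.3 CPM (WT), 32.5 and 34.6 CPM (Ch25hKO) and 0.798 and 0.792 CPM (LXRdKO). Each targeted gene was near 1 CPM in the knockout that names it and far above that in the other genotypes.

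In the mean effect, 2304 genes were higher (17.8% of those tested) and 2366 were lower (18.3%). Of these, 1165 rose alike (9.01%) and 1033 fell alike (7.99%). The falls were larger than the rises: the median mean effect was 0.30 over the genes that rose alike and -0.48 over those that fell alike, and 39 rose at least 2-fold while 202 fell at least 2-fold. The genes that fell were also expressed at lower levels, with a median of 10.6 CPM against 22.6 CPM for those that rose. In each knockout alone, 5073 genes (39.3%) were called in Ch25hKO against WT and 4115 (31.8%) in LXRdKO against WT, and 1459 of the 2198 genes that moved alike were called in both of these, 653 in 1 and 86 in neither. The knockouts differed from each other at 4898 genes (37.9%), among them 249 of the 2198. In CPM, the 4 knockout libraries were all above both WT libraries for 2410 genes tested (18.6%) and all below for 2152 (16.7%). Among the genes that moved alike, 1151 of 1165 that rose and 1003 of 1033 that fell were free of overlap in this sense, and 44 overlapped. These genes were chosen on the same libraries by a rule that favours such separation, so it is no independent support.

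The remaining 2472 called genes did not move alike. In 1918 of them both knockouts moved the same way but unequally, with the larger change in Ch25hKO for 1152 and in LXRdKO for 766, and in 554 the knockouts moved in opposite directions. The limit of 0.5 cuts through a continuous range. Ezh2, a histone methyltransferase gene (-0.24 in Ch25hKO and -0.49 in LXRdKO), lay just inside, and Plk3, a kinase gene (-0.24 and -0.48), just outside. Between 0.50 and 0.55 there were 207 genes that moved alike, and between 0.45 and 0.50 there were 256 called genes that did not.

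**Figure D1:**
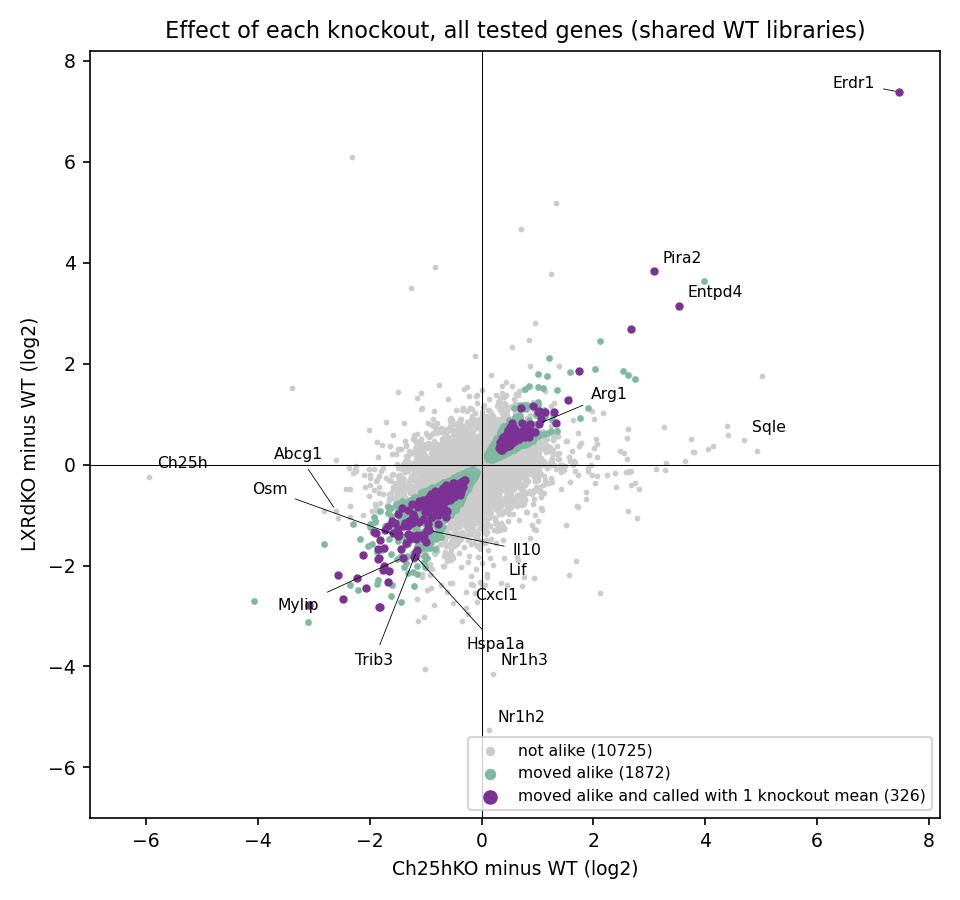
Log2 change in LXRdKO against WT (vertical axis) and in Ch25hKO against WT (horizontal axis) for each of the 12923 genes tested. Both axes use the same WT libraries. Green and purple points are the 2198 genes that moved alike, purple those that also passed the stricter fit (326), and grey points all other genes. Ch25h, Sqle, Nr1h2 and Nr1h3 lie near 1 axis, and Osm, Mylip and Hspa1a lie between the axes.

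A stricter fit gave the 4 knockout libraries a single mean, so that a difference between the knockouts counted as spread. It called 122 genes higher (0.944% of those tested) and 204 lower (1.58%), and all 326 were among the 2198, so no gene that was called without moving alike passed it. Of these 326, 12 rose and 66 fell at least 2-fold. Because unequal knockout effects count as spread in this fit, its result is not independent of the likeness rule. A second adjusted p beside a named gene is that of this fit, in which the call was lost. It is not given for genes named only to spell out a count or called without moving alike, apart from Ccl7, Asns and Hsph1.

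Among genes averaging at least 5 CPM over the 6 libraries and without overlap of libraries, Erdr1 and Pira2 had the largest increases by the smaller of the knockout effects. Both genes, and Wwc2 below, were under 5 CPM in both WT libraries and passed this limit only through the knockout libraries. Erdr1, a gene of poorly known function near the end of the sex chromosomes, had 4 counts over the WT libraries and 1461 over the knockout libraries, a ratio per library size of 183 (95% counting interval 71.5 to 674, which covers counting error only). Its level was 0.0675 and 0.0230 CPM (WT), 9.29 and 7.96 CPM (Ch25hKO) and 8.11 and 8.03 CPM (LXRdKO). Pira2, a paired immunoglobulin-like receptor gene (chromosome 7, 3836812 to 3845051), was at 0.990 and 0.967 CPM (WT), 8.56 and 8.14 CPM (Ch25hKO) and 14.4 and 13.6 CPM (LXRdKO). It rose by 3.46 ± 0.12 (adjusted p = 4.33e-13), in all 4 knockout libraries, and LXRdKO lay above Ch25hKO. Both genes have near-identical copies in the mouse genome, and the sources used here do not say how reads of such copies were assigned.

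Slc1a2, a glutamate transporter gene (chromosome 2, 102658659 to 102790784), was at 6.75 and 5.89 CPM (WT), 13.8 and 13.9 CPM (Ch25hKO) and 13.2 and 12.9 CPM (LXRdKO). The knockout libraries lay within 1 narrow range, above both WT libraries, and the rise was 1.09 ± 0.08 (adjusted p = 2.06e-08). Siglece encodes an inhibitory receptor of myeloid cells that binds sialic acid (chromosome 7, 43651070 to 43660161), and it was at 17.2 and 20.1 CPM (WT), 36.1 and 34.6 CPM (Ch25hKO) and 44.3 and 39.5 CPM (LXRdKO). It rose by 1.05 ± 0.07 (adjusted p = 2.99e-09), more in LXRdKO than in Ch25hKO (adjusted p of that difference = 0.0115). Cd33, another such receptor gene, named after its values were seen, was at 132 and 153 CPM (WT), 177 and 179.7 CPM (Ch25hKO) and 214 and 212 CPM (LXRdKO), a rise of 0.46 ± 0.05 (adjusted p = 3.95e-06, and 0.0922 with 1 mean for the knockouts). Of 5 tested genes with Siglec symbols, which leave out Cd33, 2 were higher and 1 lower. Among these 5, Siglece rose alike and Siglecg fell alike. The call of Siglecg was lost with DESeq2, a filter of at least 5 CPM, 1 mean for the knockouts and a replicate block. It was also lost without either WT replicate, either Ch25hKO replicate or LXRdKO replicate 2. Siglece, Siglecg and Cd33 lie within 2 Mb of the targeted gene Nr1h2 (chromosome 7, 44549616 to 44553951). Klf7, a Krüppel-like transcription factor gene, was at 13.8 and 17.1 CPM (WT), 34.2 and 30.3 CPM (Ch25hKO) and 29.1 and 28.4 CPM (LXRdKO), with a rise of 0.98 ± 0.08 (adjusted p = 7.58e-08). In Slc1a2, Siglece, Cd33 and Klf7 no WT library reached a knockout library, which for all but Cd33 was a condition of choice.

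Arg1 encodes arginase 1, which breaks down arginine and marks alternatively activated macrophages (chromosome 10, 24915221 to 24927484). It was at 28.5 and 34.1 CPM (WT), 62.5 and 64.8 CPM (Ch25hKO) and 57.7 and 51.9 CPM (LXRdKO). All 4 knockout libraries were above both WT libraries, those of Ch25hKO most, and the rise was 0.92 ± 0.07 (adjusted p = 2.83e-08). Icosl, the ligand gene of the T cell costimulator ICOS, was at 17.5 and 22.0 CPM (WT), 34.1 and 33.2 CPM (Ch25hKO) and 33.7 and 31.8 CPM (LXRdKO), a rise of 0.75 ± 0.07 (adjusted p = 7.39e-07). The knockout libraries of Icosl lay close together, and its WT libraries differed from each other by more than the knockouts did. Sh3bgrl2 was at 105 and 96.2 CPM (WT), 186 and 182 CPM (Ch25hKO) and 173 and 181 CPM (LXRdKO), a rise of 0.84 ± 0.05 (adjusted p = 6.97e-10), and was the most abundant of the 12 genes of largest increase. The others were Pilrb2 (1.21 ± 0.07), Wwc2 (1.07 ± 0.10), the linker histone gene H1f0 (0.77 ± 0.07) and Ado (0.74 ± 0.08), which encodes an enzyme that oxidises thiols.

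The 12 genes of largest decrease included those of the secreted signals oncostatin M and CCL2. Osm encodes oncostatin M, a cytokine of the IL-6 family (chromosome 11, 4236420 to 4241026), and was at 24.7 and 22.7 CPM (WT), 7.98 and 8.74 CPM (Ch25hKO) and 8.32 and 9.52 CPM (LXRdKO). The 4 knockout libraries spanned a range narrower than their distance to WT, and Osm fell by 1.46 ± 0.07 (adjusted p = 7.65e-11), with -1.50 in Ch25hKO and -1.41 in LXRdKO. Ccl2 encodes the chemokine that draws monocytes to tissue (chromosome 11, 82035571 to 82037453) and was at 1419 and 1397 CPM (WT), 560.3 and 658 CPM (Ch25hKO) and 671 and 708 CPM (LXRdKO). All 4 knockout libraries were below WT, and it fell by 1.12 ± 0.06 (adjusted p = 7.65e-11), a 2.17-fold decrease. Pmaip1 encodes NOXA, which promotes cell death at mitochondria, and was at 38.6 and 35.0 CPM (WT), 13.7 and 16.0 CPM (Ch25hKO) and 13.5 and 14.9 CPM (LXRdKO). Both knockouts again overlapped each other and lay below WT (fell by 1.34 ± 0.07, adjusted p = 7.65e-11).

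Mylip encodes IDOL, a ubiquitin ligase that removes the LDL receptor and is a known LXR target (chromosome 13, 45389742 to 45412022). It was at 94.2 and 86.7 CPM (WT), 34.2 and 33.9 CPM (Ch25hKO) and 26.3 and 24.1 CPM (LXRdKO). Mylip fell in both knockouts, by 1.63 ± 0.05 in the mean (adjusted p = 6.87e-14), and further in LXRdKO than in Ch25hKO (adjusted p of the difference = 3.25e-05). Serpina3g, a serine protease inhibitor gene with near-identical neighbours in a cluster, was at 44.1 and 38.5 CPM (WT), 10.3 and 12.5 CPM (Ch25hKO) and 12.7 and 13.3 CPM (LXRdKO) and fell by 1.76 ± 0.07 (adjusted p = 3.6e-12). Lmna, the gene of the nuclear lamins A and C, was at 11.6 and 10.1 CPM (WT), 4.52 and 5.41 CPM (Ch25hKO) and 4.56 and 5.36 CPM (LXRdKO). Its effects in Ch25hKO and LXRdKO had the same value to 2 decimals (-1.13), and the mean effect had an adjusted p of 1.37e-07. The others were Zc3hav1l (-1.37 ± 0.09), Htra4, a serine protease gene (-1.15 ± 0.07), Ccnf, which encodes cyclin F (-1.45 ± 0.09), Plcxd2 (-1.48 ± 0.07, adjusted p = 0.0588 with 1 mean for the knockouts), and the heat shock genes Hspa1a (-1.50 ± 0.08) and Hspa1b (-1.14 ± 0.09). Procr, named after its values were seen, encodes the endothelial protein C receptor and was at 1076 and 988 CPM (WT), 509 and 551 CPM (Ch25hKO) and 417 and 421 CPM (LXRdKO). It fell by 1.13 ± 0.05 (adjusted p = 1.1e-11).

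**Figure D2:**
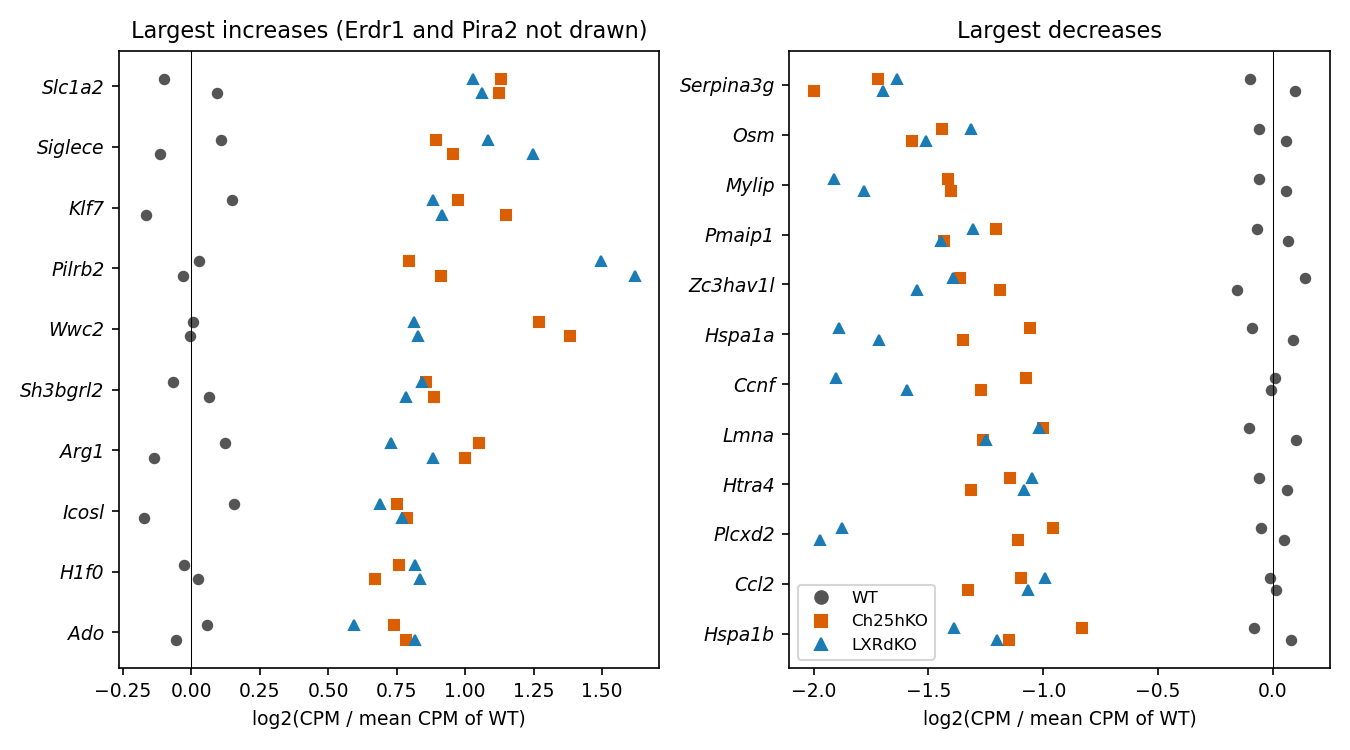
Level of the genes with the largest increases (left) and decreases (right) that moved alike, as log2 of CPM over the mean CPM of the 2 WT libraries, with 1 point per library. Erdr1 and Pira2 lie beyond the left panel's range. The genes drawn were chosen so that the 4 knockout libraries (squares and triangles) lie on 1 side of both WT libraries (circles). In Pilrb2, Mylip and Plcxd2 the LXRdKO libraries lie farther out.

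Of the paired immunoglobulin-like receptors (PIR), leukocyte immunoglobulin-like receptors (LILR) and paired type 2 immunoglobulin-like receptors (PILR), which come in activating and inhibitory forms on myeloid cells, 8 of 9 tested members were higher in the mean effect, 0 were lower and 6 rose alike. The median of the 9 was 0.91, against 0.00109 over all genes tested. This family was grouped by symbol after its values were seen. Pilra, an inhibitory member, was at 55.8 and 60.0 CPM (WT), 93.8 and 94.0 CPM (Ch25hKO) and 129.5 and 122 CPM (LXRdKO), a rise of 0.91 ± 0.05 (adjusted p = 2.9e-10). Pilrb2, an activating member, was at 12.6 and 13.1 CPM (WT), 24.2 and 22.3 CPM (Ch25hKO) and 39.5 and 36.3 CPM (LXRdKO), a rise of 1.21 ± 0.07 (adjusted p = 2.27e-10, and 0.0609 with 1 mean for the knockouts). In both genes the LXRdKO libraries were the highest, the Ch25hKO libraries were intermediate and the WT libraries were lowest, with no overlap among the 3 genotypes. Members of these families resemble each other, and several differ among mouse stocks.

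Genes of known function were then read by lists, against 17.8% higher, 18.3% lower, 9.01% rising alike and 7.99% falling alike over all genes tested. Signals that macrophages send were mixed. Of 22 tested genes of inflammatory cytokines and related enzymes, 8 were higher and 11 lower in the mean effect, 3 rose alike and 3 fell alike. Those that fell alike were Osm, Il10 and Il27. Il10 encodes the anti-inflammatory interleukin-10 (chromosome 1, 131019845 to 131024974) and was at 104 and 98.8 CPM (WT), 49.9 and 55.9 CPM (Ch25hKO) and 38.0 and 44.0 CPM (LXRdKO). It fell by 1.12 ± 0.06 (adjusted p = 1.69e-10), and both LXRdKO libraries were below both Ch25hKO libraries. Il27, which encodes a subunit of interleukin-27, was at 51.9 and 49.2 CPM (WT), 31.2 and 33.1 CPM (Ch25hKO) and 32.4 and 37.8 CPM (LXRdKO) and fell by 0.59 ± 0.06 (adjusted p = 5.49e-07). Its knockout libraries overlapped between the genotypes and were all below WT. Those that rose alike were Tnfsf9, the gene of the 4-1BB ligand, with Ebi3 and Irg1. Tnfsf9 was at 36.2 and 39.0 CPM (WT), 61.1 and 60.6 CPM (Ch25hKO) and 49.3 and 52.1 CPM (LXRdKO), a rise of 0.56 ± 0.05 (adjusted p = 2.06e-07, and 0.0522 with 1 mean for the knockouts). Without WT replicate 1, 1 gene of the list rose alike in place of 3, and with any 1 library left out the count that fell alike was 3. Il1b, whose product drives fever and neutrophil influx, was called higher but did not move alike, with 0.59 in Ch25hKO and 0.16 in LXRdKO.

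**Figure D3:**
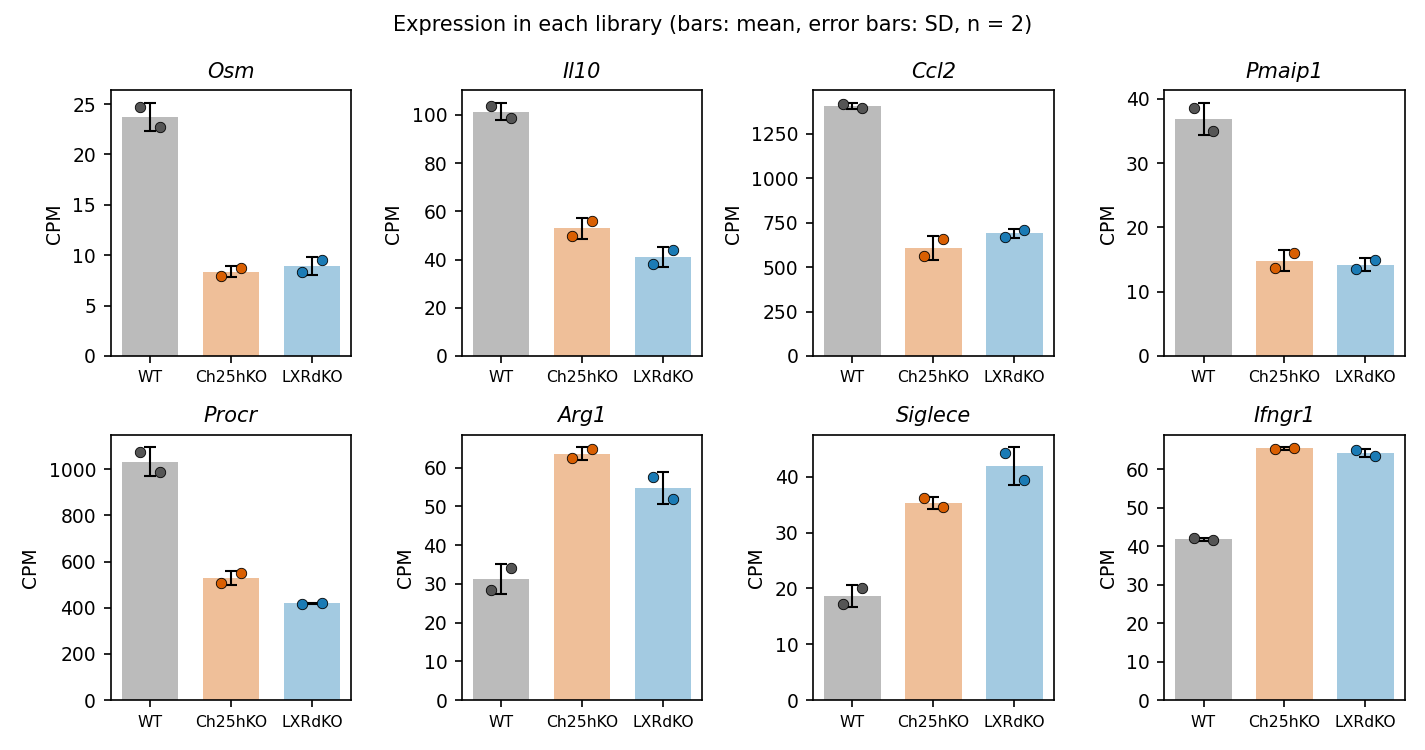
Expression in CPM of 8 genes that moved alike, in each genotype. Points are libraries, bars the mean and error bars the SD of 2 libraries, and each axis starts at 0. Osm, Il10, Ccl2, Pmaip1 and Procr are lower in all 4 knockout libraries than in both WT libraries, and Arg1, Siglece and Ifngr1 are higher. For Osm, Ccl2, Pmaip1, Arg1 and Siglece this was a condition of choice.

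Among 22 chemokine genes, 5 were higher and 11 lower, 2 rose alike (Ccl8 and Ccl24) and 1 fell alike (Ccl2). Without Ch25hKO replicate 1, 3 fell alike, without LXRdKO replicate 2, 2 did, and 1 rose alike without WT replicate 1, Ch25hKO replicate 1 or LXRdKO replicate 1. Ccl7, the neighbour of Ccl2, was at 736 and 717 CPM (WT), 333 and 389.8 CPM (Ch25hKO) and 489 and 558 CPM (LXRdKO). It fell in the mean effect by 0.74 ± 0.06 (adjusted p = 2.14e-07, and 0.108 with 1 mean for the knockouts), but its effect in LXRdKO (-0.47) was less than 0.5 times that in Ch25hKO (-1.01). Cxcl1, a neutrophil chemokine gene, was called lower with nearly all of its change in LXRdKO (-2.85, against -0.27 in Ch25hKO). Of 21 genes of the IL-1 family and the inflammasome, 3 were higher, 7 lower, 0 rose alike and 3 fell alike, namely Casp1, P2rx7 and Il33. Without WT replicate 2, 5 were higher. Casp1 encodes caspase-1, the protease that matures interleukin-1β, and was at 843 and 755 CPM (WT), 606 and 616 CPM (Ch25hKO) and 577 and 603 CPM (LXRdKO). It fell by 0.41 ± 0.05 (adjusted p = 6.34e-06). P2rx7, the gene of an ATP receptor that triggers the inflammasome, was at 59.5 and 63.5 CPM (WT), 39.1 and 42.7 CPM (Ch25hKO) and 44.8 and 42.8 CPM (LXRdKO) and fell by 0.54 ± 0.05 (adjusted p = 3.19e-07). In both genes the 4 knockout libraries lay close together, below WT. Il33 was at 12.4 and 8.27 CPM (WT), 2.98 and 4.33 CPM (Ch25hKO) and 5.36 and 5.77 CPM (LXRdKO), with WT libraries far apart, and fell by 1.20 ± 0.17 (adjusted p = 0.00049, and 0.0805 with 1 mean for the knockouts).

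Receptors and signalling genes upstream of these cytokines were more often higher than lower. Of 30 genes of the Toll-like receptor (TLR) and NF-κB pathways, 10 were higher and 6 lower, 5 rose alike (Tlr1, Irak3, Rela, Irak1 and Relb) and 0 fell alike. Without WT replicate 2, 3 rose alike. Tlr1, which pairs with TLR2 to sense bacterial lipoproteins, was at 158 and 172 CPM (WT), 248 and 248 CPM (Ch25hKO) and 258 and 249 CPM (LXRdKO). The 4 knockout libraries lay close together and above WT, a rise of 0.60 ± 0.05 (adjusted p = 4.7e-08). Of the 11 TLR genes tested, 3 were higher and 2 lower, and only Tlr1 rose alike. Their median was -0.32 in Ch25hKO and 0.55 in LXRdKO. Irak3, which encodes a brake on TLR signalling, was at 178 and 184 CPM (WT), 286 and 283 CPM (Ch25hKO) and 230.0 and 228 CPM (LXRdKO), a rise of 0.50 ± 0.04 (adjusted p = 1.62e-07, and 0.0853 with 1 mean for the knockouts). Of 12 genes of interferon ligands, receptors and feedback, 3 rose alike (Ifngr1, Ifnar1 and Ifngr2) and 1 fell alike (Socs1). Ifngr1, a subunit gene of the receptor for interferon-γ (chromosome 10, 19591949 to 19610229), was at 42.1 and 41.5 CPM (WT), 65.2 and 65.6 CPM (Ch25hKO) and 65.1 and 63.5 CPM (LXRdKO). The 4 knockout libraries were nearly equal and lay above WT, a rise of 0.63 ± 0.05 (adjusted p = 1.58e-08). Ifnar1, a subunit gene of the receptor for type I interferon, rose by 0.16 ± 0.05 (adjusted p = 0.0105, and 0.217 with 1 mean for the knockouts). That call was lost without Ch25hKO replicate 1 or LXRdKO replicate 1, and without the latter 1 of the 12 rose alike. Socs1 did not fall alike without WT replicate 2, either Ch25hKO replicate or LXRdKO replicate 2.

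Among genes of the stress responses, falls were frequent. Of 22 genes of the ER and integrated stress responses, 0 were higher and 14 lower, and 8 fell alike (Trib3, Chac1, Atf3, Sesn2, Atf4, Dnajb9, Pdia4 and Hsp90b1). The median of the list was -0.21, with -0.23 in Ch25hKO and -0.15 in LXRdKO. In the integrated stress response the transcription factor ATF4 is made when translation is held back, and it turns on genes of amino acid synthesis and cell death. Promoters of 4 genes of this list are shown because each holds the letters TGATGNAA or, on the other strand, TTNCATCA, the form of composite sites at which ATF4 and a C/EBP partner can bind. The sequences run from 250 bases before to 50 bases after the transcription start (RefSeq, GRCm38.p6), 5′ to 3′ in the direction of the gene, with the motif in capitals.
Trib3 (chr2:152344011-152344310, minus strand): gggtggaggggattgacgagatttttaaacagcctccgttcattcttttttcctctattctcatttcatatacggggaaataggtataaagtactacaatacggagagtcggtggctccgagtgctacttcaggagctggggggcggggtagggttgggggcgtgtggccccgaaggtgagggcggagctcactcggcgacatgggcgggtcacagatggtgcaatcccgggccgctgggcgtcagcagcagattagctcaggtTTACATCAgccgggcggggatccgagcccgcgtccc
Chac1 (chr2:119350992-119351291, plus strand): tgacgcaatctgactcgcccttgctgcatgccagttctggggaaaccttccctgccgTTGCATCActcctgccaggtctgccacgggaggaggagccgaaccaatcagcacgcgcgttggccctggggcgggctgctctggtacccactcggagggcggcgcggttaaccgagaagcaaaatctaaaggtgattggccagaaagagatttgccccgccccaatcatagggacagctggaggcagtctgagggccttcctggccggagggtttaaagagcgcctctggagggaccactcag
Atf3 (chr1:191183284-191183583, minus strand): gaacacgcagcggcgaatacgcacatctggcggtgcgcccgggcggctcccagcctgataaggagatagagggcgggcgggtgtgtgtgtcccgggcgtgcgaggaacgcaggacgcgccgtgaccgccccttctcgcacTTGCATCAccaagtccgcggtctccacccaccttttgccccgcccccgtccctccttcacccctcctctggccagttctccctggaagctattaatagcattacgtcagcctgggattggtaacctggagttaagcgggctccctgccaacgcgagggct
Asns (chr6:7693160-7693459, minus strand): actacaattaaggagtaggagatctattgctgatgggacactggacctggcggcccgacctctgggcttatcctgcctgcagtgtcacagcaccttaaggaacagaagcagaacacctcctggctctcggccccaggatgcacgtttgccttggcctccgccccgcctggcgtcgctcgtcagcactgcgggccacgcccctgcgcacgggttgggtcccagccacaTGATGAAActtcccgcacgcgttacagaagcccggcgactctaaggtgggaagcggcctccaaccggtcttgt

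The motif began at position +14 from the start in Trib3, -193 in Chac1, -110 in Atf3 and -23 in Asns. It was not in the windows of Sesn2 and Ddit3. Among all 32851 windows 3.97% held it. Counted by gene, as present if any window of the gene held it, the share was 2.96% among genes tested with a window. It was 3.71% among those that rose alike and 3.31% among those that fell alike. Windows were found for 9181 of the 12923 genes, 862 of the 1165 that rose alike and 726 of the 1033 that fell alike. The others have no window here, so these shares are given as a description and not compared. A match describes the letters only and is not evidence of binding.

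Trib3, a pseudokinase gene induced late in the stress response, was at 3.67 and 3.87 CPM (WT), 1.41 and 1.97 CPM (Ch25hKO) and 1.25 and 1.06 CPM (LXRdKO). It fell by 1.43 ± 0.15 (adjusted p = 1.42e-06), a 2.69-fold decrease, at a level low in all libraries. Chac1, which encodes an enzyme that degrades glutathione, was at 2.18 and 2.69 CPM (WT), 1.04 and 1.05 CPM (Ch25hKO) and 0.615 and 0.747 CPM (LXRdKO) and fell by 1.53 ± 0.18 (adjusted p = 4.92e-06). In both genes no knockout library reached a WT library, and both LXRdKO libraries were below both Ch25hKO libraries. Atf3, a transcription factor gene induced by stress and by TLR signals, was abundant at 574 and 532 CPM (WT), 367 and 393 CPM (Ch25hKO) and 433 and 439 CPM (LXRdKO). It fell by 0.44 ± 0.05 (adjusted p = 1.51e-06, and 0.066 with 1 mean for the knockouts), more in Ch25hKO. Sesn2, a gene of nutrient sensing, fell by 0.51 ± 0.09 (adjusted p = 0.000165), and Atf4 itself was at 191 and 181 CPM (WT), 153 and 164 CPM (Ch25hKO) and 153 and 149 CPM (LXRdKO), a fall of 0.27 ± 0.05 (adjusted p = 0.000208, and 0.0893 with 1 mean for the knockouts).

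Other members of the list were called lower without moving alike. Asns, the asparagine synthetase gene, was at 14.4 and 14.5 CPM (WT), 11.3 and 12.2 CPM (Ch25hKO) and 7.88 and 8.21 CPM (LXRdKO). Its fall was 0.57 ± 0.07 in the mean (adjusted p = 7.6e-06, and 0.173 with 1 mean for the knockouts), with -0.84 in LXRdKO against -0.29 in Ch25hKO. Ddit3, which encodes the death-promoting factor CHOP, was at 32.2 and 29.3 CPM (WT), 15.0 and 17.2 CPM (Ch25hKO) and 27.5 and 25.8 CPM (LXRdKO). Here the order was the reverse, with -0.93 in Ch25hKO against -0.21 in LXRdKO. With each library left out in turn, 6 to 8 members fell alike and 11 to 15 were lower, and in the stricter fit 3 were lower (Trib3, Chac1 and Sesn2).

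Heat shock proteins, chaperones that hold and refold other proteins, were also more often lower than higher. Of 24 tested genes of the HSP70, HSP90 and small heat shock families, 12 were lower and 1 higher, and 7 fell alike and 1 rose alike. The median was -0.22, with -0.096 in Ch25hKO and -0.39 in LXRdKO. The family was grouped by symbol after its values were seen. Hspa1a, the stress-inducible HSP70 gene (chromosome 17, 34969190 to 34972156), was at 375 and 332 CPM (WT), 139 and 169.7 CPM (Ch25hKO) and 108 and 95.4 CPM (LXRdKO). It fell by 1.50 ± 0.08 (adjusted p = 3.19e-07), and the LXRdKO libraries were lowest. Its near-identical neighbour Hspa1b, with which reads can be exchanged, was at 118 and 105 CPM (WT), 50.3 and 62.8 CPM (Ch25hKO) and 48.5 and 42.7 CPM (LXRdKO) and fell by 1.14 ± 0.09 (adjusted p = 6.56e-06). Hspa2 was at 5.15 and 4.33 CPM (WT), 2.58 and 2.64 CPM (Ch25hKO) and 2.94 and 2.53 CPM (LXRdKO) and fell by 0.83 ± 0.12 (adjusted p = 5.71e-05).

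Hsph1, a co-chaperone gene of HSP70, was called lower (-0.58 ± 0.06, adjusted p = 4.99e-06, and 0.134 with 1 mean for the knockouts) but did not move alike, with -0.36 in Ch25hKO and -0.81 in LXRdKO. Of 39 DNAJ co-chaperone genes, 7 were higher and 10 lower, 4 rose alike and 8 fell alike. Without Ch25hKO replicate 1, 5 fell alike, and without WT replicate 2, 2 rose alike. Dnaja1, an HSP40 gene, was at 1025 and 934 CPM (WT), 676 and 724 CPM (Ch25hKO) and 646 and 611 CPM (LXRdKO) and fell by 0.56 ± 0.05 (adjusted p = 2.13e-07). Among heat shock genes 5 to 7 fell alike with each library left out in turn, the 1 that rose alike (Hspa14) was lost without WT replicate 1, Ch25hKO replicate 1 or either LXRdKO replicate, and 4 were lower in the stricter fit. The letters GAANNTTCNNGAA, or TTCNNGAANNTTC on the other strand, spell 3 exact alternating units of the binding element of heat shock factor. They were in the window of Hsph1 and not in those of Hspa1a, Hspa1b, Hspa2, Hspb1 and Dnaja1. Only this exact spelling was searched, so elements with inexact units would be missed. Among genes tested with a window 0.61% held the exact spelling.

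Early response genes were more often lower than higher. Of 23 genes of the AP-1 and EGR transcription factors and of MAP kinase feedback, 3 were higher and 12 lower, 6 fell alike (Dusp1, Atf3, Dusp4, Dusp2, Fosb and Jund) and 1 rose alike (Dusp6). The list median was -0.094 in Ch25hKO and -0.295 in LXRdKO. Dusp1 encodes a phosphatase that switches off p38 and JNK in LPS-treated macrophages, and its promoter holds the cAMP response element TGACGTCA, shown in capitals (RefSeq, GRCm38.p6, 250 bases before to 50 after the start, motif at -143). The element was not in the window of Fosb.
Dusp1 (chr17:26508423-26508722, minus strand): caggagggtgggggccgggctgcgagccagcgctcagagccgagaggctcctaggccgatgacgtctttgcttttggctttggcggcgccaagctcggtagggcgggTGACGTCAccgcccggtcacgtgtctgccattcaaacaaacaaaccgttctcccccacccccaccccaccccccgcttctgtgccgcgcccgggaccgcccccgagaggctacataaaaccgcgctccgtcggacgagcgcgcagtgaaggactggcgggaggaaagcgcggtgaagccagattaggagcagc

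The element was in 1.79% of all windows. Counted by gene, as present if any window of the gene held it, the share was 3.51% of genes tested with a window. It was 3.25% of those that rose alike and 4.13% of those that fell alike. Dusp1 was at 494 and 486 CPM (WT), 296 and 310.0 CPM (Ch25hKO) and 315 and 376 CPM (LXRdKO). It fell by 0.60 ± 0.06 (adjusted p = 4.25e-07), and all knockout libraries were below WT, with LXRdKO replicate 2 closest. Dusp4, a phosphatase gene of the ERK pathway, was at 16.6 and 17.4 CPM (WT), 13.5 and 13.1 CPM (Ch25hKO) and 11.2 and 9.79 CPM (LXRdKO) and fell by 0.53 ± 0.07 (adjusted p = 1.75e-05, and 0.103 with 1 mean for the knockouts). With each library left out in turn, 5 to 6 genes of the list fell alike. Without Ch25hKO replicate 1, 1 gene rose alike, and without any other 1 library 0 did. In the mean effect, 0 genes were higher without WT replicate 2 and 1 without LXRdKO replicate 1.

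Genes of the response to oxidants were also more often lower. Of 15 genes, 1 was higher and 7 lower, and 4 fell alike (Gclc, Sqstm1, Slc40a1 and Srxn1). The list median was -0.004 in Ch25hKO and -0.26 in LXRdKO. Sqstm1 encodes p62, an adaptor of selective autophagy, and was at 736 and 659 CPM (WT), 514 and 543 CPM (Ch25hKO) and 417 and 429 CPM (LXRdKO). It fell by 0.56 ± 0.05 (adjusted p = 1.74e-07, and 0.0799 with 1 mean for the knockouts). Slc40a1, the gene of the iron exporter ferroportin, was at 31.0 and 28.0 CPM (WT), 23.1 and 20.4 CPM (Ch25hKO) and 20.1 and 21.0 CPM (LXRdKO) and fell by 0.48 ± 0.06 (adjusted p = 1.3e-05). Gclc, the catalytic subunit gene of glutathione synthesis, fell by 0.60 ± 0.05 (adjusted p = 6.59e-08, and 0.0664 with 1 mean for the knockouts). With each library left out in turn, 3 to 4 genes of the list fell alike, and 3 were higher without WT replicate 1 and 0 without any 1 knockout library.

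Metabolic and macrophage state genes were more often higher than lower. Of 23 genes of glycolysis and hypoxia, 12 were higher and 4 lower, 5 rose alike (Egln3, Gapdh, Pdk1, Pfkl and Slc2a1) and 1 fell alike (Hk1). Their median was 0.262 in Ch25hKO and 0.027 in LXRdKO. Egln3 encodes a prolyl hydroxylase that marks hypoxia-inducible factor for destruction (chromosome 12, 54178981 to 54203860), and was at 30.5 and 32.9 CPM (WT), 53.7 and 53.1 CPM (Ch25hKO) and 49.8 and 48.3 CPM (LXRdKO). It rose by 0.69 ± 0.05 (adjusted p = 1.66e-08) with no overlap of WT and knockout libraries. Gapdh, often used as a reference gene, was at 1153 and 1224 CPM (WT), 1565 and 1549 CPM (Ch25hKO) and 1547 and 1522 CPM (LXRdKO). This was a rise of 0.38 ± 0.05 (adjusted p = 1.16e-05, and 0.0517 with 1 mean for the knockouts). In this list 3 genes fell alike without WT replicate 2 or LXRdKO replicate 2 and 0 without Ch25hKO replicate 1. Of 14 genes of alternative activation, 5 were higher and 1 lower, 4 rose alike (Arg1, Cd163, Stab1 and Ccl24) and 1 fell alike (Irf4). Here the median was 0.00252 in Ch25hKO and 0.162 in LXRdKO. Cd163, the receptor gene for haptoglobin and haemoglobin, was low at 1.69 and 1.77 CPM (WT), 4.38 and 4.17 CPM (Ch25hKO) and 3.53 and 3.64 CPM (LXRdKO) and rose by 1.18 ± 0.13 (adjusted p = 2.78e-06). Irf4, a transcription factor gene of this state, went the other way, at 3.08 and 2.03 CPM (WT), 1.25 and 1.51 CPM (Ch25hKO) and 0.957 and 0.927 CPM (LXRdKO), a fall of 1.16 ± 0.19 (adjusted p = 0.000133, and 0.0799 with 1 mean for the knockouts). Without WT replicate 2, 2 genes of the list fell alike, and WT replicate 1 was the highest library of Irf4.

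In clearance and complement, 11 of 20 genes were higher and 3 lower, 3 rose alike (C1qa, Stab1 and Abca7) and 1 fell alike (Cd36). Medians of this list were 0.0749 in Ch25hKO and 0.296 in LXRdKO. Cd36, a scavenger receptor gene for oxidised lipoproteins, was at 208 and 202 CPM (WT), 147 and 145 CPM (Ch25hKO) and 135 and 136 CPM (LXRdKO) and fell by 0.55 ± 0.04 (adjusted p = 2.83e-08). C1qa, a complement component gene, was at 41.5 and 41.6 CPM (WT), 53.3 and 56.8 CPM (Ch25hKO) and 57.8 and 58.5 CPM (LXRdKO), a rise of 0.45 ± 0.05 (adjusted p = 1.63e-06). Each lay in a narrow range in the 4 knockout libraries. Only 1 gene rose alike in this list without WT replicate 1, Ch25hKO replicate 2 or LXRdKO replicate 2.

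**Figure D4:**
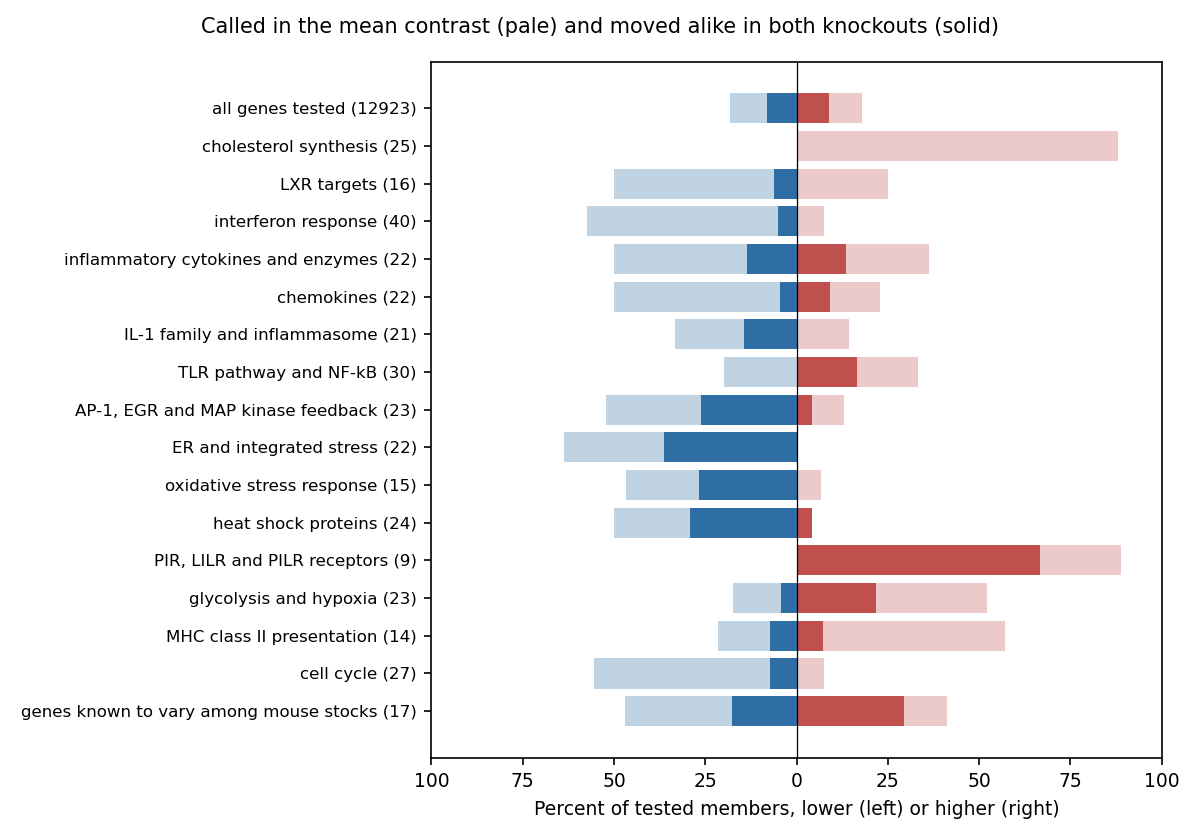
Percent of the tested members of each list that were called lower (left) or higher (right) in the mean effect (pale bars) and that moved alike (solid bars), with the number tested in parentheses. The top bar is all 12923 genes. The pale bar of cholesterol synthesis has no solid part (22 of 25 higher, 0 alike), and that of ER and integrated stress has a large one (14 of 22 lower, 8 alike).

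A call in the mean effect did not by itself mean a shared change. Of 25 genes of cholesterol synthesis, 22 were called higher and 0 moved alike: the list median was 2.82 in Ch25hKO and 0.15 in LXRdKO. Srebf2, the gene of SREBP2, was at 16.0 and 14.3 CPM (WT), 91.6 and 93.8 CPM (Ch25hKO) and 23.9 and 25.2 CPM (LXRdKO), so its mean effect of 1.66 came mainly from Ch25hKO (2.61, against 0.70 in LXRdKO). Of 16 LXR target genes, 4 were higher, 8 were lower and only Mylip moved alike. Abcg1, a cholesterol exporter gene, was at 269 and 237 CPM (WT), 39.6 and 43.6 CPM (Ch25hKO) and 131 and 137 CPM (LXRdKO). It fell in both knockouts, by unequal amounts (-2.60 in Ch25hKO and -0.91 in LXRdKO). Of 40 interferon response genes, 23 were lower in the mean effect, and 2 fell alike (Oasl1 and Herc6). Oasl1 was at 804 and 799 CPM (WT), 458 and 498 CPM (Ch25hKO) and 555 and 611 CPM (LXRdKO) and fell by 0.60 ± 0.05 (adjusted p = 8.13e-08, and 0.0557 with 1 mean for the knockouts). Cmpk2, a mitochondrial nucleotide kinase gene of this response, was at 2941 and 2545 CPM (WT), 899 and 1071 CPM (Ch25hKO) and 2065 and 2316 CPM (LXRdKO), with -1.48 in Ch25hKO and -0.32 in LXRdKO. Of these 3 lists, 0 genes were higher and 1, Mylip, was lower in the stricter fit.

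Genes known to differ in sequence or copy number among mouse stocks were read because a difference of stock between WT and both knockouts would appear here as a shared change. Of 17 such genes tested, 7 were higher and 8 lower, 5 rose alike (Erdr1, Pira2, Pilrb2, Entpd4 and Glo1) and 3 fell alike (Serpina3g, Wdfy1 and Nnt). Entpd4, a nucleotidase gene with near-identical copies, was at 0.360 and 0.414 CPM (WT), 4.64 and 4.38 CPM (Ch25hKO) and 3.33 and 3.60 CPM (LXRdKO), a rise of 3.34 ± 0.19 (adjusted p = 5.25e-10). Nnt, which encodes a mitochondrial NADPH-forming enzyme and carries a deletion in the C57BL/6J substrain, was at 25.6 and 26.4 CPM (WT), 13.4 and 13.2 CPM (Ch25hKO) and 16.4 and 15.8 CPM (LXRdKO), a fall of 0.83 ± 0.06 (adjusted p = 7.49e-09). Wdfy1, an endosomal adaptor gene of TLR signalling, was at 103 and 104 CPM (WT), 59.4 and 63.9 CPM (Ch25hKO) and 53.3 and 52.6 CPM (LXRdKO), a fall of 0.86 ± 0.05 (adjusted p = 1.69e-10). In all 3 genes the WT libraries lay close together and apart from all 4 knockout libraries. Whether the mice differed in stock was not tested, and the labels give 1 strain for all.

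Genes that moved alike were on every chromosome tested. Per chromosome, 5.59% (chromosome 3) to 11.5% (chromosome 14) of the matched genes rose alike and 5.42% (chromosome 8) to 12.7% (chromosome 16) fell alike. Within 2 Mb of Ch25h, 21 genes were tested, of which 2 rose and 3 fell alike (9.52% and 14.3%, against 9.01% and 7.99% over all genes tested). The counts were 5 and 4 of 38 around Nr1h3 (13.2% and 10.5%), and 14 and 6 of 83 around Nr1h2 (16.9% and 7.23%). Siglece and Cd33, which rose alike, are among the genes around Nr1h2. These differences from the overall shares were not tested.

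Markers of other cell types were checked against the groups of genes above. Macrophage markers had a summed level of 17160 to 18620 CPM in WT and 17110 to 20680 CPM in the knockouts, and of 11 tested 3 were higher and 1 rose alike (Emr1, which encodes F4/80). Dendritic cell markers summed to 164 to 179.7 CPM in WT and 94.9 to 143 CPM in the knockouts, with 4 of 10 lower, and Ccr7 fell alike (-0.99 ± 0.09, adjusted p = 2.23e-07). Most of this sum was Cd83 (144 and 127 CPM in WT), which was called lower but did not move alike. The dendritic cell genes Flt3 and Zbtb46 had 17 counts or fewer in each library. Others were well detected: Xcr1 had 645 and 555 counts (WT), 201 and 216 (Ch25hKO) and 573 and 647 (LXRdKO), and Clec9a had 145 and 134 (WT), 91 and 84 (Ch25hKO) and 150 and 169 (LXRdKO). Neither moved alike. Mast cell and basophil markers summed to 64.95 to 70.5 CPM in WT and 50.1 to 55.5 CPM in the knockouts, nearly all of it Hdc, with 2 of 3 tested falling alike (Hdc and Gata2), while Mcpt4 was at 0 and Cpa3 at 7 to 12 counts. Stromal markers summed to 40.2 to 44.25 CPM in WT and 48.7 to 60.5 CPM in the knockouts, with 4 of 9 higher and 1 rising alike (Pdgfra, a call lost without either WT replicate, Ch25hKO replicate 2 or LXRdKO replicate 1). Without LXRdKO replicate 2, 3 stromal markers rose alike.

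Neutrophil markers (659 to 715 CPM in WT, 474 to 882.5 CPM in the knockouts), erythroid and megakaryocyte markers (25.6 to 27.4 and 31.6 to 44.4 CPM), T and NK cell markers (4.17 to 5.42 and 4.03 to 4.60 CPM) and B cell markers (1.105 to 1.215 and 0.475 to 0.969 CPM) held 0 genes that moved alike, and at most 1 per list with 1 library left out. Most of the neutrophil sum was Lcn2 (27408 and 29271 counts in WT), and most of the erythroid and megakaryocyte sum was Pf4 (995 and 991). The largest part of the stromal sum above was Vcam1 (1218 and 1078 counts in WT). The haemoglobin genes Hba-a1, Hba-a2 and Hbb-b1 were at 0 in every library. The part of other cells in the results above was not tested.

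**Figure D5:**
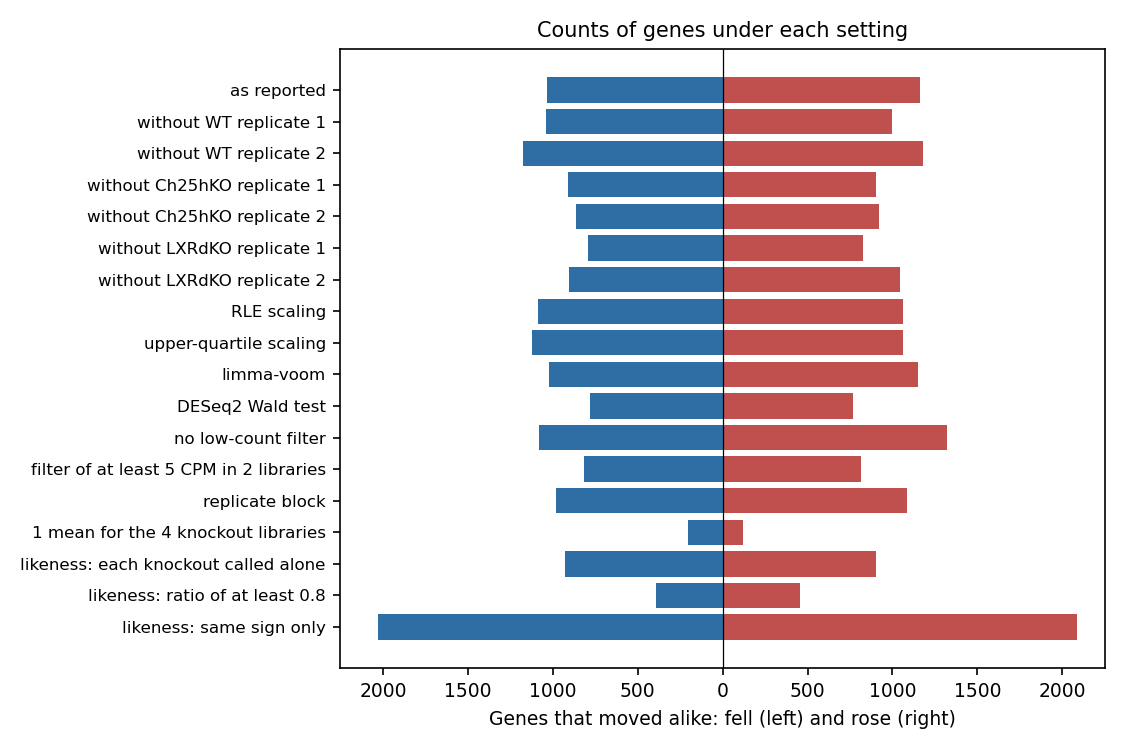
Number of genes that fell alike (left, blue) and rose alike (right, red) as reported and under each other setting. Leaving out 1 library gave 795 to 1175 falling and 827 to 1177 rising, the single knockout mean gave 204 and 122, and dropping the 0.5 limit gave 2029 and 2087.

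The counts of genes that moved alike moved most with 1 mean for the 4 knockout libraries (122 rising and 204 falling), and next with the definition of likeness. Requiring the smaller effect to be at least 0.8 times the larger left 455 rising and 390 falling, and requiring only the same sign gave 2087 and 2029. Between 1531 and 1719 of the 2198 genes also moved alike with 1 library left out, and 0 moved alike in the opposite direction in the settings run. Without WT replicate 2, 93 genes rose at least 2-fold in place of 39.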

How the data were processed

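RNA from 6 libraries was amplified with the Ovation RNA-seq System V2 before library construction, per the labels' protocols, so reads are not independent molecules. The authors deposited raw read counts per gene symbol, not normalized. The submitters' processing notes name CASAVA, STAR 2.3.0, HTSeq and the mouse build mm10. For the annotation, the counting mode and strand, the sources used here give nothing. Reads of overlapping, antisense or near-identical genes (Pira2, Pilrb2, Serpina3g, Entpd4, Erdr1, Hspa1a and Hspa1b) may be assigned to either gene, so these values are uncertain. The table held 23337 symbols, 5683 of them at 0 in every library.

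From these counts, edgeR 4.0.16 in R 4.3.3 was used with its default low-count filter (12923 genes, 99.98% of counts), TMM scaling, 1 mean per genotype and robust quasi-likelihood dispersions (common biological coefficient of variation 4.41%, 3 residual and 14.4 prior degrees of freedom). P-values are two-sided, with Benjamini-Hochberg adjustment over all 12923 genes, and the procedure was tested on simulated data. Likeness has no test of its own.

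The rule for named genes took the 12 largest increases and 12 largest decreases by the smaller knockout effect, among genes that moved alike averaging 5 CPM or more and without overlap of WT and knockout libraries, leaving out predicted or unnamed models. It also took the targeted genes, 9 genes fixed by name (Il1b, Il10, Osm, Ccl2, Ccl7, Cmpk2, Abca1, Abcg1 and Srebf2) and the 4 lowest p-values per list. Other genes, named to spell out a count, were chosen after their values were seen. Some genes are not reported here. The comparison, the 29 lists and the rules were chosen with earlier results of these data known, and lists overlap in part (Atf3, Stab1 and Ccl24, for example, are each in 2). No list was tested. Positions are from GENCODE vM21 (GRCm38), which matched 11629 genes by symbol. Alternatives were RLE and upper-quartile scaling, DESeq2 1.42.0, limma-voom (limma 3.58.1), other low-count filters, 1 mean for the 4 knockout libraries, a replicate block, other limits of likeness and each library left out in turn, where a genotype left with 1 library was assumed to vary like the others. A crossed replicate block was added after the data were seen.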

Additional observations from a re-analysis of the deposited data

Results flagged for a closer look

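Among the named genes that moved alike, those below still differed between the knockouts in edgeR's test (quasi-likelihood, p-values adjusted over all genes by Benjamini-Hochberg). Values are LXRdKO minus Ch25hKO on the log2 scale, with n = 2 libraries per genotype, and this contrast does not use the WT libraries. These genes share their direction against WT but not its size.

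Among genes that rose, the rise was larger in LXRdKO for Pira2 (0.75), Pilrb2 (0.70), Pilra (0.42), Cd33 (0.26) and Siglece (0.24). It was larger in Ch25hKO for Wwc2 (-0.51), Entpd4 (-0.38), the TLR brake gene Irak3 (-0.31), Tnfsf9 (-0.26) and Arg1 (-0.22). Among genes that fell, the fall was deeper in LXRdKO for Plcxd2 (-0.89), Hspa1a (-0.60), Ccnf (-0.57), Mylip (-0.44), the chemokine receptor gene Ccr7 (-0.40), Il10 (-0.37), Dusp4 (-0.34), Procr (-0.34), Gclc (-0.33), Sqstm1 (-0.32), Hspa1b (-0.31) and Wdfy1 (-0.22). It was deeper in Ch25hKO for Oasl1 (0.29), Nnt (0.28), the lysosomal sulfatase gene Galns (0.20), Atf3 (0.20), Dusp1 (0.19) and Ccl2 (0.18). The adjusted p ran from 1.74e-07 for Pilrb2 to 0.0453 for Hspa1b.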

How the results depend on the processing

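Each of the 15 other fits and 3 other definitions of likeness changed 1 choice at a time. With 1 mean for the 4 knockout libraries, 122 genes were higher and 204 lower, all of which moved alike (122 and 204), 12 and 66 of them at least 2-fold. DESeq2 gave 769 rising alike, 20 rising and 130 falling at least 2-fold. A filter of at least 5 CPM in 2 libraries gave 814 rising and 815 falling alike, 7 and 32 of them at least 2-fold. A likeness limit of 0.8 gave 455 rising and 390 falling (21 and 70 at least 2-fold), and the same sign alone 2087 and 2029 (75 and 309). Without each library in turn, 1695 to 2132 genes were higher and 1845 to 2577 lower, 827 to 1177 rose alike and 795 to 1175 fell alike, with 30 to 93 and 170 to 265 at least 2-fold. The highest count of rises came without WT replicate 2. The causes of these shifts were not tested. All other counts over all genes stayed within 1.5 times those reported.

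Of 148 named genes, 71 moved alike. None changed sign in a fit where it was called or, if called as reported, in any fit. Of the 71, 26 lost their call with 1 mean for the knockouts, 2 with DESeq2 (Rmrp and Pdgfra) and 1 or 2 without a library (Pdgfra, Ifnar1 or Rmrp). Of the 2198 genes that moved alike, 1588 averaged 5 CPM or more, and the others rest on fewer reads.

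With the replicate number as a block, 1086 genes rose and 979 fell alike, and 2046 of these 2065 genes were among the 2198 reported. The labels do not say whether the replicate numbers pair the samples. Deviations of same-numbered libraries correlated at -0.32 (WT and Ch25hKO), -0.06 (WT and LXRdKO) and 0.12 (Ch25hKO and LXRdKO) over 8141 genes. With 2 libraries per genotype these values cannot settle it. A crossed block gave 1222 and 1082. Neither block moved a count of calls over all genes by more than 1.5 times.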

Other observations

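Several lists held calls in the mean effect but few genes that moved alike. In MHC class II presentation, 8 of 14 genes were higher and 3 lower, yet 1 rose alike (H2-Ob) and 1 fell alike (the costimulator gene Cd40), and both were lost without LXRdKO replicate 1. The list median was 0.13 in Ch25hKO and 0.53 in LXRdKO. In the cell cycle list, 15 of 27 genes were lower and 2 fell alike (Mcm6, of the replicative helicase, and Bub1b, of the spindle checkpoint). Without Ch25hKO replicate 1, 1 gene of the list fell alike. In fatty acid synthesis, 9 of 14 genes were higher, 3 were lower and 0 moved alike, with 1 rising alike without LXRdKO replicate 2.

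Of 31 ribosomal protein genes tested, 11 were higher, 4 lower and 16 not called, 9 rose alike and 1 fell alike, and 0 passed with 1 mean for the 4 knockout libraries. Rpl37 was at 102 and 108 CPM (WT), 127 and 129.5 CPM (Ch25hKO) and 139 and 138 CPM (LXRdKO), a rise of 0.34 ± 0.05 (adjusted p = 1.39e-05, and 0.0586 with 1 mean for the knockouts, edgeR). Without WT replicate 2, 7 were lower and 2 fell alike, and without WT replicate 1, Ch25hKO replicate 1 or LXRdKO replicate 2, 2 were lower and 0 fell alike. Of 9 nuclear and non-coding RNAs, 2 were higher, 2 were lower and 1 rose alike (Rmrp, at 1.13 and 1.15 CPM (WT), 1.45 and 1.74 CPM (Ch25hKO) and 1.75 and 2.44 CPM (LXRdKO)). Of these, 4 were higher without WT replicate 2 or Ch25hKO replicate 2, and 1 was lower without WT replicate 1, Ch25hKO replicate 1 or LXRdKO replicate 1. Without WT replicate 2, 2 rose alike, and without Ch25hKO replicate 2 or LXRdKO replicate 1, 0 did. Of 21 lysosome genes, 1 was higher, 7 were lower, 1 rose alike and 3 fell alike. Without WT replicate 1, 3 were higher and 2 rose alike, and without WT replicate 2, 6 fell alike.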
